A study of Mus musculus with 4 samples.

Results

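Histone genes were examined as 1 group of 80 rows out of the 23420 gene rows counted in each library. They were chosen by symbol. The 68 clustered genes are those named Hist1h, Hist2h, Hist3h or Hist4h, and the 12 variant genes are the H2af and H3f3 genes with H1f0 and H1fx. By the histone in their name, the clustered genes comprise 6 for H1, 18 for H2A, 19 for H2B, 12 for H3 and 13 for H4. Hist3h2bb-ps, counted with H2B, and the variant H2afy3 are annotated as processed pseudogenes. All 80 symbols were found in the GENCODE annotation of GRCm38, with 54 clustered genes on chromosome 13 (21715763 to 23934851), 10 on chromosome 3 (96219865 to 96270132), 3 on chromosome 11 and 1 on chromosome 6.

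The 4 libraries were made from 1 line of mouse large pre-B cells whose labelled genotype is Irf4/8-/- (both transcription factor genes deleted), a genotype that the control and the hairpin group share. Large pre-B cells are dividing B cell precursors that depend on interleukin 7. The line grew on OP9 stromal cells, a feeder layer, with 10 ng/ml of interleukin 7. A retrovirus with a GFP reporter delivered a short hairpin RNA against luciferase (shLuc, the control) or against Myb (shMyb), in duplicate sets of 12 wells, and GFP+ cells were sorted 72 hours later. Each group had 2 libraries, and since both were transductions of the same line, p-values cover that spread only. Myb itself was at 616 and 600 CPM (counts scaled to a common library size by TMM) in shLuc and at 617 and 639 CPM in the libraries labelled shMyb. Its log2 fold change was 0.046 (SE 0.037, edgeR adjusted p = 0.283), so the transcript was not measurably lower, and the directions given here separate libraries that carry these labels.

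The 4 libraries held 36573743 to 44682954 counts. A count of 0 allows up to 3 counts, or 0.0688 to 0.0799 CPM, for counting error only. Reads were counted on both genes of the labelled genotype. Irf4 was at 97.2 and 101 CPM in shLuc against 232 and 233 CPM in shMyb (log2 fold change 1.23, edgeR adjusted p = 3.4e-19), and Irf8 at 553 and 554 CPM against 438 and 433 CPM (-0.34, adjusted p = 1.0e-08). Counts per gene cannot show whether these reads came from the deleted parts. The 10 B-lineage markers summed to 5419 and 5481 CPM in shLuc against 5497 and 5422 CPM in shMyb. The 12 stromal markers summed to 53.8 to 69.3 CPM in shLuc against 50.4 to 57.5 CPM in shMyb, and of the 10 tested, Fn1 (-1.52) and Cxcl12 (-1.80) were lower and Sparc (0.42) and Postn (1.01) higher on the log2 scale. That was 40.0% called at an edgeR adjusted p below 0.05, against 62.2% of all tested genes. Lum was at 0 in both shLuc libraries. The 6 myeloid markers summed to 3.10 to 3.58 CPM in shLuc against 6.11 to 7.14 CPM in shMyb, and 3 of the 4 tested were higher, Cd14 (log2 fold change 1.73), Itgam (1.51) and Lyz2 (0.99). The remaining tested marker, Csf1r, lay the other way, at 1.18 and 1.26 CPM in shLuc against 1.03 and 0.825 CPM in shMyb. It was not called (-0.40, edgeR adjusted p = 0.205). All 4 tested myeloid markers were under 5 CPM, a level at which 37.3% of all tested genes were higher and 11.6% lower. Elane was at 0 everywhere and Mpo at 1 count or fewer. The part of these cell types in the histone differences was not tested. Bulk RNA also cannot tell fewer cells in a phase or of a type from less RNA per cell.

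Histones package DNA into nucleosomes, in which pairs of H2A, H2B, H3 and H4 form the core and H1 binds the linker. Clustered genes supply most histone protein during DNA replication. Their mRNAs typically lack introns and poly(A) tails and end instead in a conserved stem-loop that the stem-loop binding protein Slbp holds. Variant genes mostly stand alone in the genome, often but not always have introns, typically yield polyadenylated mRNA and are transcribed outside S phase too. Libraries enriched for poly(A) RNA are therefore known to sample clustered histone mRNA poorly. The labels state that mRNA was isolated, and the isolation step is not given in the sources used here.

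The stem-loop is the sequence that separates the 2 classes, so it was searched for after the stop codon in the annotated transcripts on the sense strand, as GGNNCTT followed directly by NTNAGNN and CC. It was found in 46 of the 68 clustered genes. All 46 were among the 52 clustered genes with a 3′ UTR of over 20 bases in the annotation. Among the 12 variant genes it was found in H2afx alone. Over all annotated genes, histone genes included, a match anywhere in a transcript was counted, not only after the stop codon. On that wider search the motif occurred in 0.362% of 55450 genes, and in 0.621% of the 21901 protein-coding ones. The sites are shown for H2afx and for 7 clustered genes whose levels are described below, as DNA of the sense strand, 5′ to 3′, from the GENCODE transcripts, with the 16 bases of the motif in capitals.
Hist1h1c: aaaaGGCTCTTTTCAGAGCCaccact
Hist3h2a: caaaGGCTCTTTTCAGAGCCacccac
Hist3h2ba: caaaGGCTCTTTTCAGAGCCaccttc
Hist2h3c1: caaaGGCTCTTTTCAGAGCCaccaca
Hist1h3c: aaaaGGCTCTTTTAAGAGCCacctaa
Hist1h4i: taaaGGCCCTTTTTAGGGCCaccaca
Hist1h4d: caaaGGCCCTTTTCAGGGCCactacc
H2afx: caaaGGCCCTTTTAAGGGCCaccacc

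Among the 46 clustered genes the motif took 8 forms. The form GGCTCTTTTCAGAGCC was present in 26 genes, which encode H1, H2A, H2B and H3. The form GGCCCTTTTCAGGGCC was present in 7 genes, all for H4, and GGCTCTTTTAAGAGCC in 6. No match was found in Hist2h2be and Hist1h2bc, which says only that these letters are not in their annotated 3′ UTR. The annotated transcript ran on for more than 100 bases past the loop in 23 clustered genes, among them Hist3h2a (1643 bases), Hist2h3c1 (1167 bases) and Hist1h1c (840 bases). H2afx had 822 bases after its loop.

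Variant genes made up nearly all counted histone RNA. Their summed level was 3108 and 3183 CPM in shLuc against 2945 and 2834 CPM in shMyb, or 0.291% to 0.310% of each library's counts. The clustered genes summed to 71.3 and 76.1 CPM in shLuc against 94.0 and 101 CPM in shMyb, or 0.00700% to 0.0103% of counts. Clustered counts came to 2.29% and 2.39% of variant counts in shLuc and to 3.19% and 3.55% in shMyb. Both shMyb libraries thus had more clustered histone RNA relative to variant RNA than either shLuc library.

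Of the 12 variant genes, 9 passed the low-count filter and were tested, and 5 were lower in shMyb, 0 higher and 4 not called. In the background of all 12610 tested genes, 31.7% were called lower and 30.6% higher, and 62.2% in either direction at an adjusted p below 0.05. The 5 lower variant genes were H2afz, H3f3a, H1f0, H2afj and H2afv, and their share of those tested, 55.6%, stood beside the 62.2% called overall. Their changes were small, at most 1.39-fold. The count of 0 higher is from edgeR. DESeq2 also called 0, and 1 variant gene, H2afy, was higher at an unadjusted p below 0.05.

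H2afz, which encodes the main H2A.Z protein found at promoters and enhancers, was at 540 and 553 CPM in shLuc and at 401 and 384 CPM in shMyb. Both shMyb libraries lay below both shLuc libraries. The means fell from 547 ± 9.41 to 393 ± 11.7 CPM (SD, n = 2 each), a log2 fold change of -0.48 (SE 0.037, edgeR adjusted p = 5.2e-11). H2afv, the paralog that encodes a nearly identical H2A.Z protein, was at 128 and 130 CPM in shLuc against 121 and 115 CPM in shMyb. Its groups did not overlap either, and its log2 fold change was -0.12 (SE 0.038, adjusted p = 0.00652). The call on H2afv was lost with library totals as the only scaling, after removal of the trend with expression level, and without shMyb replicate 2. The H2afz counts per H2afv count were 4.22 and 4.26 in shLuc and 3.30 and 3.34 in shMyb, so the 2 genes changed unequally within each library. Of the 50-base windows of H2afz, 64.6% occurred in no other gene's transcripts, so its level and its ratios to other genes are uncertain.

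The pair of genes for H3.3, the replication-independent H3, also differed from each other. H3f3a was at 626 and 652 CPM in shLuc and at 547 and 522 CPM in shMyb, without overlap, and fell from 639 ± 18.4 to 534 ± 17.7 CPM (SD, n = 2 each; log2 fold change -0.26, SE 0.038, edgeR adjusted p = 2.6e-06). H3f3b was at 781 and 798 CPM in shLuc and at 792 and 756 CPM in shMyb. Those groups overlapped, and its log2 fold change was -0.029 (95% interval -0.11 to 0.050, adjusted p = 0.525). The sign of the H3f3b value turned with 3 other scalings or corrections and without shMyb replicate 2, and removal of the trend with level called it higher (0.11, adjusted p = 0.00277). The H3f3a counts per H3f3b count were 0.801 and 0.816 in shLuc and 0.690 in both shMyb libraries. Both genes encode the same protein. H3f3a overlaps the antisense genes Gm17275 and H3f3aos, and the strand setting of the counting is not given in the sources used here.

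H1f0, the linker histone variant known from slowly dividing and differentiated cells, was at 62.6 and 63.5 CPM in shLuc and at 52.6 and 51.5 CPM in shMyb. The groups did not overlap, and the level fell from 63.1 ± 0.663 to 52.0 ± 0.784 CPM (SD, n = 2 each; log2 fold change -0.28, SE 0.043, edgeR adjusted p = 4.4e-06). H2afj, an H2A variant, was at 55.2 and 58.5 CPM in shLuc against 49.2 and 53.5 CPM in shMyb. Its log2 fold change was -0.15 (adjusted p = 0.00965), and that call was lost under 5 of 13 alternative fits, among them the fits without shLuc replicate 2 and without shMyb replicate 1. H1fx, the other linker variant, was low, at 2.28 and 2.16 CPM in shLuc against 1.92 and 2.34 CPM in shMyb. Its groups overlapped and its log2 fold change was -0.056 (95% interval -0.46 to 0.34, adjusted p = 0.816), but it was called lower after correction for GC content and length (-0.57, adjusted p = 0.00702), which raised the lower variants from 5 to 7.

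H2afx and H2afy, the other 2 abundant H2A variants, were not called. H2afx, whose protein is phosphorylated at DNA breaks, was at 319 and 323 CPM in shLuc against 343 and 319 CPM in shMyb, and the groups overlapped. Its log2 fold change was 0.044 (95% interval -0.036 to 0.12, edgeR adjusted p = 0.330), and other fits called it in both directions. It was lower after correction for GC content and length (-0.27, adjusted p = 7.7e-07) and higher with library totals (0.11, adjusted p = 0.0161) and with the trend with level removed (0.12, adjusted p = 0.00512). H2afy, which encodes macroH2A, a variant with a large extra domain, was at 595 and 603 CPM in shLuc against 637 and 631 CPM in shMyb. These groups did not overlap, while the test gave a log2 fold change of 0.082 (SE 0.036, adjusted p = 0.0517), and 82.1% of all tested genes had groups that did not overlap. It was called higher with library totals (0.14, adjusted p = 7.1e-04), with a filter of 1 CPM (0.094, adjusted p = 0.0207) and with the trend with level removed (0.20, adjusted p = 6.7e-06), and its sign turned with GC content and length corrected (-0.046, adjusted p = 0.479). H2afy2, the second macroH2A gene, had 1 and 3 counts in shLuc and 7 and 3 in shMyb and was not tested. H2afy3 and H2afb1 were at 0 in all 4 libraries.

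**Figure D1:**
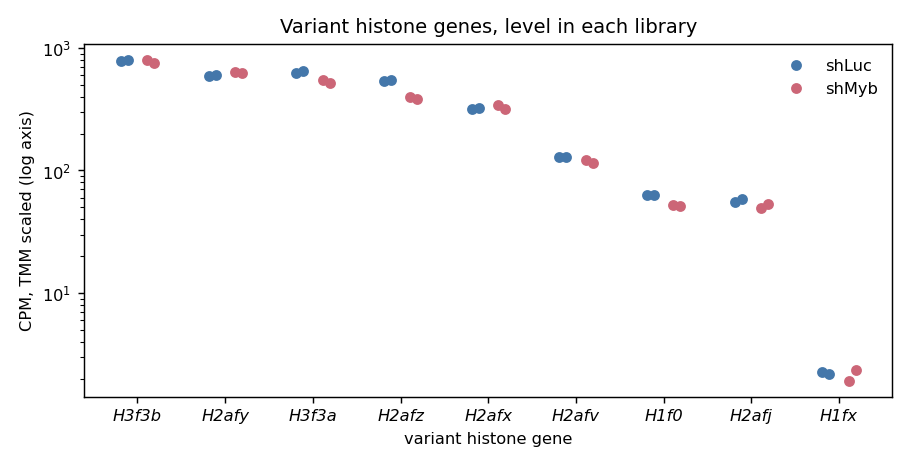
Level of the 9 tested variant histone genes in CPM on a log axis, 1 point per library (2 shLuc, 2 shMyb). The shMyb points of H2afz (401 and 384 CPM) lie below its shLuc points (540 and 553 CPM), while the points of H3f3b overlap.

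Per length of annotated exon, the order of the variants was different. H2afz (264 RPKM, CPM per kilobase of exon, mean of 4 libraries), H3f3b (263 RPKM) and H2afx (236 RPKM) led, followed by H3f3a (167), H2afy (90.5), H2afv (75.6), H2afj (29.5) and H1f0 (28.0 RPKM). The most abundant clustered gene on this scale, Hist1h4i, had 13.2 RPKM and Hist1h1c had 8.28. H1fx, at 1.79 RPKM, was the single tested variant below these. Per length, H2afz was at 1.32 and 1.33 times H2afx in shLuc and at 0.910 and 0.939 times H2afx in shMyb. The order of these 2 genes turned between the groups on this scale only. In counts, H2afz was above H2afx in every library, at 1.69 and 1.71 times in shLuc and 1.17 and 1.21 times in shMyb. On both scales the H2afz level is uncertain, since only 64.6% of its 50-base windows were unique.

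The 68 clustered genes were low. Of them 9 were at 0 in all 4 libraries, 13 had a count but did not pass the filter (at most 34 counts over the 4 libraries), and 46 were tested. Only 16 had a mean of at least 1 CPM. Of the 46 tested, 7 were higher in shMyb, 0 lower and 39 not called, so 15.2% were called in either direction against 62.2% of all tested genes. The 7 were Hist1h1c, Hist2h3c1, Hist3h2a, Hist2h2be, Hist1h2bc, Hist1h4d and Hist1h4i. The count of 0 lower is from edgeR, was also 0 at an unadjusted p below 0.05, and was 0 with DESeq2. Without shMyb replicate 2 the higher genes numbered 4, and without shLuc replicate 1 there was 1 lower gene, Hist1h2af (-1.81), which passes the low-count filter in that fit and not with all 4 libraries. All 7 called genes were among the 16 with at least 1 CPM (43.8% called). None of the 30 tested genes below that level was called, where standard errors ran from 0.31 to 0.71 on the log2 scale.

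The median log2 fold change of the 46 tested clustered genes was 0.24, with 33 above 0 and 13 below. Genes of low level as a whole shared that direction. The median over all tested genes was 0.0048, but over the 3145 tested genes under 5 CPM it was 0.39, and 48.8% of those were called, 37.3% higher and 11.6% lower. With the trend of fold change with level removed, the clustered median was -0.28, and 4 clustered genes were called higher and 4 lower. The 4 higher were Hist1h1c, Hist2h3c1, Hist3h2a and Hist2h2be. The 4 lower were Hist1h2ak (-1.07), Hist2h2bb (-1.16), Hist1h2be (-0.78) and Hist1h1b (-0.69, adjusted p = 0.0331), which without the correction had log2 fold changes of -0.56, -0.61, -0.44 and -0.31 and were not called. Hist1h2ak and Hist1h1b are named only because that correction called them. The shMyb and shLuc groups did not overlap in 18 of the 46 with shMyb above and in 3 with shMyb below, where the background was 41.0% and 41.2% of all tested genes.

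**Figure D2:**
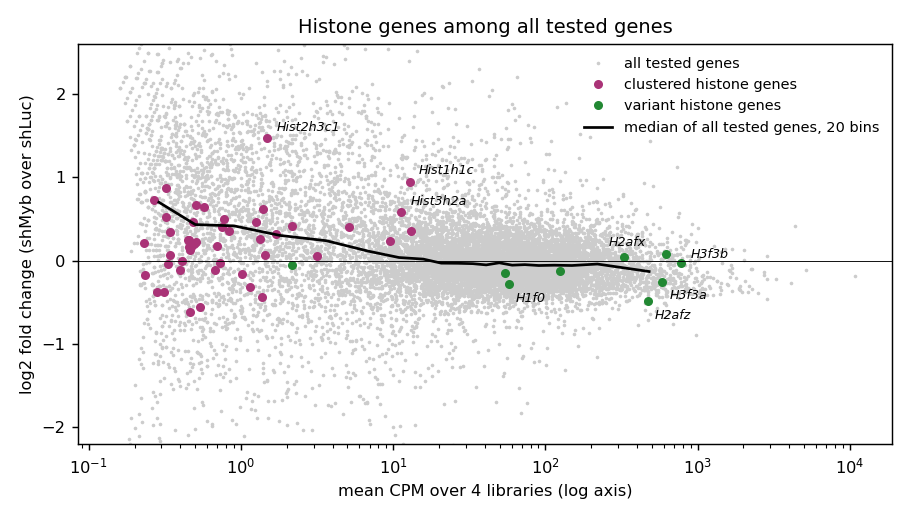
Log2 fold change (shMyb over shLuc) against mean CPM over 4 libraries (log axis) for 12610 tested genes, with the 46 clustered and 9 variant histone genes marked and the median of all tested genes in 20 bins of level as a line; 87 genes lie beyond the vertical axis. The line runs from 0.70 in the lowest bin to -0.13 in the highest, and Hist2h3c1, Hist1h1c and Hist3h2a stand above it.

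H1 genes came to 13.9 and 14.3 CPM in sum in shLuc and 21.4 and 23.3 CPM in shMyb, 1.59 times the shLuc mean. That difference was carried by Hist1h1c, a linker histone gene whose product is also abundant in cells that do not divide (chromosome 13, 23738808 to 23740367, plus strand, protein coding). Hist1h1c was at 8.93 and 8.72 CPM in shLuc and at 17.0 and 17.1 CPM in shMyb, on 357, 380, 661 and 641 counts. Both shMyb libraries were nearly double either shLuc library, and the means rose from 8.83 ± 0.151 to 17.0 ± 0.0747 CPM (SD, n = 2 each; log2 fold change 0.95, SE 0.075, edgeR adjusted p = 8.3e-11). Without Hist1h1c the H1 sum was 4.93 and 5.62 CPM in shLuc against 4.46 and 6.26 CPM in shMyb, and these overlapped.

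The other tested clustered H1 genes were not called. Hist1h1e had 50 and 77 counts in shLuc and 64 and 81 in shMyb (log2 fold change 0.32, 95% interval -0.16 to 0.80, edgeR adjusted p = 0.233). Hist1h1d was at 1.45 and 1.35 CPM in shLuc against 1.21 and 1.73 CPM in shMyb (0.064, 95% interval -0.44 to 0.57). The groups of both genes overlapped. In the annotation, Hist1h1e shares sequence on the same strand with Hist1h2be and Gm11398, so the Hist1h1e level is uncertain. To complete the H1 genes, Hist1h1a had a log2 fold change of -0.16 (adjusted p = 0.641) and Hist1h1b one of -0.31 (adjusted p = 0.337). Hist1h1t, the linker histone gene of testis, had at most 2 counts in any library. Among all H1 genes, clustered or variant, Hist1h1c was higher and H1f0 lower, while the rest were not called or not tested.

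H2A genes summed to 13.7 and 14.8 CPM in shLuc against 19.1 and 19.2 CPM in shMyb, and 1 of 8 tested was called. That is 12.5%, against 62.2% of all tested genes. Hist3h2a (chromosome 11, 58954685 to 58956830, plus strand) was at 8.31 and 9.84 CPM in shLuc and at 13.8 and 13.3 CPM in shMyb. The groups did not overlap, and the log2 fold change was 0.58 (SE 0.086, edgeR adjusted p = 2.9e-06, n = 2 each). The gene Trim17 overlaps it on the same strand and had 0 to 2 counts per library. Hist3h2ba, an H2B gene in the same small cluster, had 120 and 140 counts in shLuc and 129 and 119 in shMyb, or 3.11 ± 0.148 and 3.24 ± 0.100 CPM (SD, n = 2 each). Its groups overlapped (log2 fold change 0.059, 95% interval -0.27 to 0.38, adjusted p = 0.761). The Hist3h2a counts per Hist3h2ba count were 2.77 and 3.06 in shLuc and 4.18 and 4.19 in shMyb, so the 2 neighbours changed unequally. Hist2h2ac, at 0.375 and 0.229 CPM in shLuc against 0.385 and 0.373 CPM in shMyb, had a log2 fold change of 0.34 (adjusted p = 0.527).

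H2B genes summed to 25.7 ± 0.0510 CPM in shLuc and 30.8 ± 1.71 CPM in shMyb (SD, n = 2 each), and 2 of 13 tested were higher. That is 15.4% called, against 62.2% of all tested genes. Hist2h2be, the clustered gene with the highest CPM, was at 11.7 and 11.2 CPM in shLuc and at 13.9 and 15.5 CPM in shMyb, without overlap (log2 fold change 0.36, SE 0.077, edgeR adjusted p = 2.8e-04). Hist1h2bc was at 4.48 and 4.36 CPM in shLuc against 5.18 and 6.50 CPM in shMyb, also without overlap (0.40, SE 0.13, adjusted p = 0.00964). Its call was lost with DESeq2, with the trend with level removed and without shMyb replicate 2. These are the 2 called genes in whose annotated 3′ UTR the stem-loop letters were not found. Hist1h2be was lower by value in both shMyb libraries, at 1.55 and 1.63 CPM in shLuc against 1.31 and 1.04 CPM in shMyb, and was not called (-0.44, SE 0.24, adjusted p = 0.123). Its annotation overlaps Hist1h1e and Gm11398 on the same strand, so its level is uncertain. Hist2h2bb, at 0.425 and 0.688 CPM in shLuc against 0.334 and 0.399 CPM in shMyb, was not called (-0.61, SE 0.40, adjusted p = 0.184).

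H3 genes summed to 5.41 and 6.98 CPM in shLuc against 8.88 and 9.11 CPM in shMyb, and 1 of 10 tested was higher. That is 10.0% called, against 62.2% of all tested genes. Hist2h3c1 (chromosome 3, 96246685 to 96248509, plus strand) had 26 and 40 counts in shLuc and 92 and 76 in shMyb. That was 0.651 and 0.918 CPM against 2.36 and 2.02 CPM, without overlap, for the largest log2 fold change among the 46 tested clustered genes (1.47, SE 0.25, edgeR adjusted p = 2.0e-05). Its near-identical neighbour Hist2h3c2 had 4 and 8 counts in shLuc and 8 and 5 in shMyb and was not tested. Of the 50-base windows of Hist2h3c1, 65.3% occurred in no other gene's transcripts, and it overlaps Gm20634 on the same strand, so its level is uncertain. Hist1h3c was at 1.88 and 1.81 CPM in shLuc against 2.28 and 2.66 CPM in shMyb. Its groups did not overlap, but it was not called (0.42, SE 0.19, adjusted p = 0.0613). Hist2h3b had a log2 fold change of -0.38 (SE 0.49, adjusted p = 0.517).

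H4 genes, all of which encode the same protein or nearly so, summed to 12.6 and 14.3 CPM in shLuc against 15.1 and 16.9 CPM in shMyb. Of 10 tested, 2 were higher. Hist1h4i was at 8.23 and 9.32 CPM in shLuc against 9.75 and 11.0 CPM in shMyb (log2 fold change 0.24, SE 0.092, edgeR adjusted p = 0.0282). Hist1h4d was at 0.901 and 1.29 CPM in shLuc against 1.54 and 1.84 CPM in shMyb (0.62, SE 0.25, adjusted p = 0.0366). Neither gene's groups overlapped, yet each call was lost at an adjusted p below 0.01 and under 5 of 13 alternative fits, among them the fits without shLuc replicate 1 and without shMyb replicate 2 and, for Hist1h4d, a block for the replicate number (adjusted p = 0.0575). Hist2h4 had a log2 fold change of -0.37 (SE 0.52, adjusted p = 0.545). Hist4h4, the single gene of its cluster, had 14 and 5 counts in shLuc and 8 and 4 in shMyb and was not tested.

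**Figure D3:**
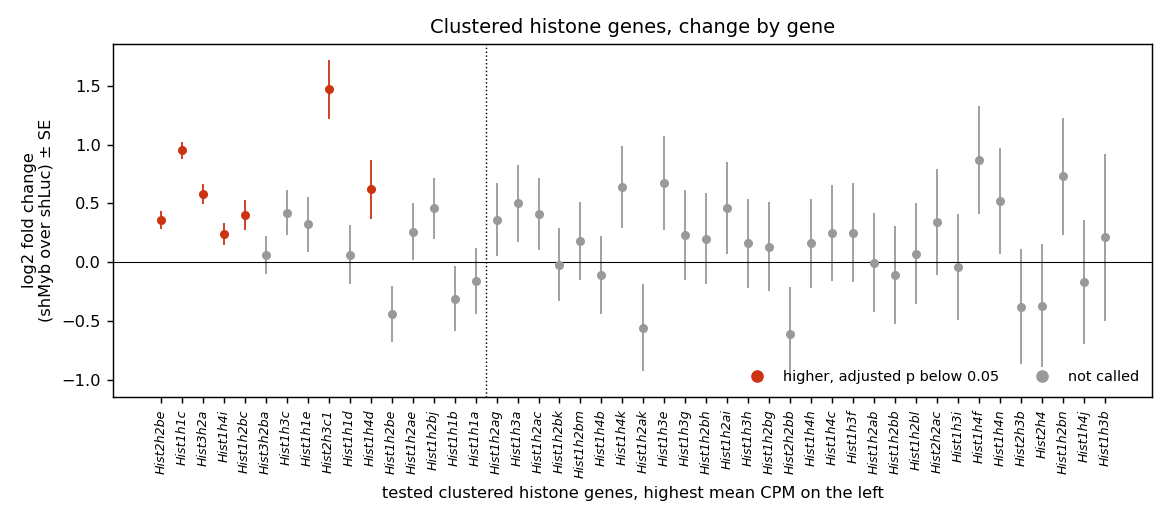
Log2 fold change (shMyb over shLuc) with its standard error for the 46 tested clustered histone genes, ordered by mean CPM from left to right, with a dotted line at 1 CPM. The 7 called genes, all higher, lie left of the line, and right of it no gene was called.

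Across the 13 alternative fits, 4 of the 7 higher clustered genes and 3 of the 5 lower variant genes were called in the same direction every time. Those were Hist1h1c (log2 fold change 0.78 to 1.01), Hist2h3c1 (1.12 to 1.74), Hist3h2a (0.44 to 0.70) and Hist2h2be (0.28 to 0.43), and H2afz (-0.52 to -0.38), H3f3a (-0.31 to -0.14) and H1f0 (-0.38 to -0.21). The sum over all clustered genes was 1.32 times the shLuc mean in shMyb, and 1.24 times without Hist1h1c. The 16 genes with at least 1 CPM gave 1.38 times, and the 52 below gave 15.1 ± 1.00 CPM in shLuc and 16.8 ± 1.08 CPM in shMyb (SD, n = 2 each; 1.11 times). Every one of the 5 histone types had a higher sum in both shMyb libraries than in either shLuc library. Such a separation, with shMyb above, was seen in 41.0% of all tested genes. Single genes weighed heavily in these sums. The H1 sums overlapped without Hist1h1c, and Hist3h2a alone made up most of the H2A sum in every library.

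**Figure D4:**
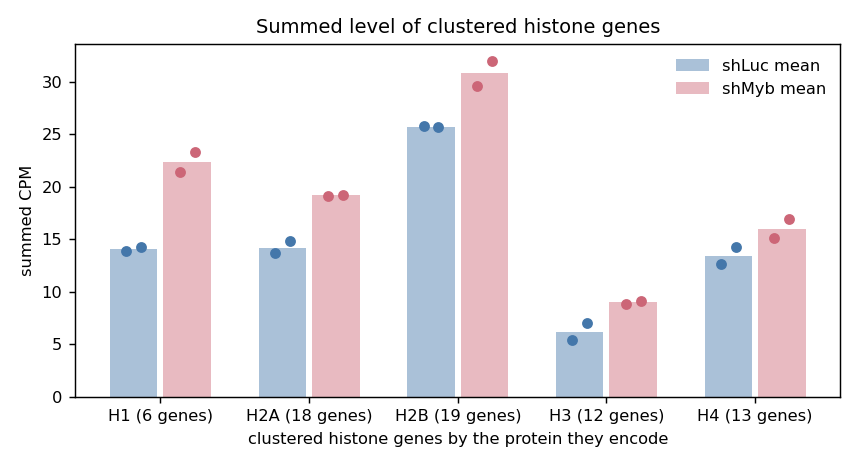
Summed CPM of clustered histone genes by histone type, with bars for the mean of 2 libraries and 1 point per library. The H1 sum is 13.9 and 14.3 CPM in shLuc against 21.4 and 23.3 CPM in shMyb; the H4 sums lie closest, at 14.3 CPM in the higher shLuc and 15.1 CPM in the lower shMyb library.

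The clustered genes with at least 1 CPM, a scale not corrected for length, differed in annotated 3′ ends from the others. A poly(A) signal (AATAAA or ATTAAA) lay in the last 50 bases of an annotated transcript in 17 of 68 clustered genes and in 10 of 12 variant genes, against 77.9% of protein-coding genes. Among the 16 clustered genes with at least 1 CPM, 8 had one, and among the 52 below, 9 did. Of the 7 called genes 5 had one, namely Hist1h1c, Hist2h3c1, Hist3h2a, Hist2h2be and Hist1h4i. The 17 clustered genes with a signal summed to 45.2 and 47.7 CPM in shLuc against 64.4 and 66 CPM in shMyb, and the 51 without to 26 and 28.3 CPM in shLuc against 29.6 and 34.7 CPM in shMyb. The median log2 fold change of tested genes was 0.24 with a signal and 0.23 without. The median annotated 3′ UTR was 785 bases in the 16 genes and 85.5 bases in the 52. Longer transcripts collect more counts at the same level. Per length of annotated exon the order was the other way, with a median of 0.378 RPKM with a signal and 0.71 RPKM without.

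Many clustered genes have near-identical copies. Of the 9 clustered genes at 0 in every library, 7 had fewer than 50% of their 50-base windows to themselves, the others occurring in transcripts of other genes. These 9 were Hist1h2bq, Hist1h2br, Hist1h2ao, Hist1h2ap, Hist1h4m, Hist1h2ba, Hist1h2aa, Hist2h2aa1 and Hist2h2aa2. Hist1h2aa (97.7% unique) and Hist1h2ba (61.8%) were the exceptions. Among the other 59 clustered genes, 23 had a unique share under 50%. The 7 called genes all had at least 50%, as had 15 of the 16 with at least 1 CPM. In the 7 genes with a low unique share, a level of 0 cannot be told apart from reads lost to copies, since the handling of reads with several matches is not given in the sources used here.

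H2A and H2B genes often lie head to head, sharing the stretch between their starts. There were 13 such pairs of opposite strand with starts 173 to 306 bases apart, of which 3 were at 0 on both sides and 6 had both genes tested. The closest pair includes the pseudogene Hist3h2bb-ps. Within some pairs the levels per length were close, as in Hist1h2ag (1.73 RPKM) and Hist1h2bj (2.72 RPKM) or Hist1h2bl (0.902 RPKM) and Hist1h2ai (1.24 RPKM). Those levels are uncertain, since under 50% of their 50-base windows were unique (21.1%, 40.6%, 17.2% and 9.9%, in that order). In others they lay further apart. Hist2h2be was at 4.99 RPKM and its partner Hist2h2ac at 0.655 RPKM, with log2 fold changes of 0.36 and 0.34. Hist1h2bc was at 4.44 RPKM and Hist1h2ac at 0.304 RPKM, with log2 fold changes of 0.40 and 0.41. In the pair Hist1h2ak and Hist1h2bn the values had opposite signs, -0.56 and 0.73 (SE 0.37 and 0.50). Their unique shares were 47.7% and 13.6%. Of the 10 genes given here with values, only Hist2h2be and Hist1h2bc were called.

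Promoter windows (250 bases before to 50 after the start, RefSeq, GRCm38.p6) were available for 62 clustered and 10 variant genes. CCAAT, the letters bound by the factor NF-Y, occurred on either strand in 53 of the 62 and 7 of the 10, against 37.4% of 32851 windows. TATAAA occurred in 35 clustered windows and 1 variant window (13.6% of all), and TTTGAA in 29 and 1 (17.9%). The letters TAACNG or CAACNG, which the Myb protein is known to bind, occurred on either strand in 37 clustered and 6 variant windows, against 49.7% of all. The windows of divergent pairs overlap, so these counts share sequence. The part before the start is shown for H2afz and Hist1h1c, the variant and clustered gene with the smallest p, both on the plus strand. Capitals mark CCAAT or its complement ATTGG and, in H2afz, CTGTTG, the complement of a CAACNG match.
H2afz, chr3:137864237-137864486: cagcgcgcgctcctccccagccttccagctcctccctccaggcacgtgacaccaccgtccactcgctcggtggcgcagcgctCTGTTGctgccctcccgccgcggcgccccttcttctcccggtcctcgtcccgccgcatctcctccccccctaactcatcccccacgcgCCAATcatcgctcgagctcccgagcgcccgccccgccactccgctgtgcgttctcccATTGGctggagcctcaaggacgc
Hist1h1c, chr13:23738557-23738806: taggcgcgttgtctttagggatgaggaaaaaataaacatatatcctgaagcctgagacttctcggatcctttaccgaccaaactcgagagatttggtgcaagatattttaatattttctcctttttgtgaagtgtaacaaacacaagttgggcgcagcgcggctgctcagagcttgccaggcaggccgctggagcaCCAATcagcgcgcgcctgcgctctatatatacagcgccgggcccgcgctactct

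The full windows held 3 CCAAT matches and 1 TAACNG or CAACNG match in H2afz, and 1 and 0 in Hist1h1c. Hist3h2a had 2 and 0, and Hist2h3c1 had 1 and 0. Of the other lower variants, H3f3a had 1 CCAAT and no TAACNG or CAACNG match, H2afv had 4 and 1, H2afj had 3 and 1, and H1f0 had none of either. A match is a run of letters and not a measured binding site.

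Genes of S phase and of histone mRNA, transport and deposition were examined in 4 lists. Of 105 tested genes, 67 were lower and 10 higher, where 31.7% and 30.6% of all tested genes were, and 29 of the 67 were in the S phase list. Of the 4 lists, S phase had the highest share lower, with 29 of 32 lower, 0 higher and a median log2 fold change of -0.25. They included Dut, which removes dUTP (-0.48), Mcm6, a subunit of the replicative helicase (-0.43), Ccne2, a cyclin of S phase entry (-0.45) and Tyms, which makes thymidylate (-0.37). The clustered histone genes, which are transcribed in S phase, had 0 called lower in these libraries, or 4 with the trend with level removed. The S phase genes lie at higher levels, so these counts are not alike. Of the 46 tested clustered genes, 30 were under 1 CPM, with standard errors of 0.31 to 0.71. A change the size of the S phase median could not have been called in those 30. Tested genes under 5 CPM also had a median log2 fold change of 0.39.

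Among 24 histone chaperones and carriers, 19 were lower and 4 higher (median -0.22), or 95.8% called against 62.2% of all tested genes. Npm3, a chaperone of the nucleoplasmin family, fell from 104 ± 3.72 to 67.5 ± 0.321 CPM (log2 fold change -0.62, n = 2 each). Rbbp7, a partner of several histone-binding complexes (-0.35), Npm1, the nucleolar chaperone (-0.37), and Hspa8, a general chaperone (-0.37), were also lower. Asf1a, which hands H3 and H4 to assembly factors, had a log2 fold change of -0.00047, whereas its paralog Asf1b was lower (-0.26, edgeR adjusted p = 1.1e-06). Asf1a and Asf1b, like Slbp, Lsm11, Npat and Cenpa below, are named for their roles, with their values known.

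Among 28 genes of histone mRNA transcription and processing, 13 were lower and 3 higher (median -0.077). That is 57.1% called, below the 62.2% of all tested genes, of which 31.7% were lower and 30.6% higher. The shared spliceosomal and U7 particle proteins Snrpf (-0.44) and Snrpe (-0.37) and the exonuclease Eri1, which trims histone mRNA ends (-0.42), were lower. Slbp fell from 183 ± 2.79 to 162 ± 0.108 CPM (log2 fold change -0.17, edgeR adjusted p = 1.7e-04, n = 2 each), and Lsm11, a protein particular to the U7 particle, fell from 29.4 ± 0.0366 to 21.1 ± 1.29 CPM (-0.48). Npat, the activator of clustered histone transcription, had a log2 fold change of -0.00024 (adjusted p = 0.997). Mtor, a growth kinase that the list also held, rose from 262 ± 4.63 to 708 ± 12.2 CPM (1.43, adjusted p = 1.9e-20) and is not specific to histone mRNA.

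Among 22 tested genes that deposit variants, 7 were lower, 3 higher and 12 not called (median -0.050). That is 45.5% called, against 62.2% of all tested genes, and a share lower close to the 31.7% of all genes, so this list did not exceed the background. Ruvbl1 (-0.33) and Ruvbl2 (-0.26), helicases of the complexes that insert H2A.Z, were lower, as were Oip5, which recruits the centromeric H3 (-0.21), and Hira, the chaperone of H3.3 (-0.14). Cenpa, the centromeric H3 variant whose symbol lies outside the 80, was at 169 ± 0.841 CPM in shLuc against 159 ± 5.82 CPM in shMyb (-0.091, edgeR adjusted p = 0.0377, n = 2 each).

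**Figure D5:**
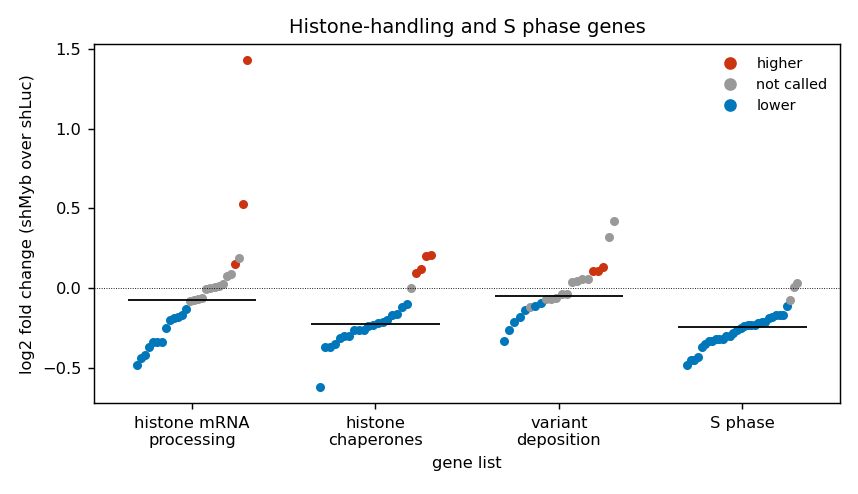
Log2 fold change (shMyb over shLuc) of each tested gene in 4 lists, coloured by call, with the list median as a line. S phase genes lie almost all below 0 (median -0.25, 29 of 32 lower), and the single point near 1.43 is Mtor.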

How the data were processed

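RNA of sorted cells was sequenced in paired ends, with 2 libraries per group. Groups and replicate numbers came from the sample titles. The deposited values are raw counts by gene symbol, with a file for each library. Tools named in the submitters' processing notes are FastQC, STAR, HTSeq and DESeq2, and the build is mm10, with no version or role. Its annotation and strand setting are not stated in the labels or files.

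The main test was that of edgeR 4.0.16, under R 4.3.3, on the counts of all genes (filterByExpr with a minimum count of 10, TMM scaling, glmQLFit with robust=TRUE, glmQLFTest, with a term for group). Benjamini-Hochberg adjustment ran over 12610 tested genes, and calls were made below 0.05. A ± gives the SD around the mean of 2 libraries. RPKM used merged exon lengths. Genes were matched by name to GENCODE M21 (GRCm38, the assembly of mm10; 21751 of 23420 rows), and coordinates are 1-based. Transcript sequences are GENCODE's and promoters RefSeq's (GRCm38.p6). The test was checked on simulated counts. Duplicates differed by more than counting noise (chi-square per degree of freedom 3.76 and 4.23) and counted separately.

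The members and lists were chosen with earlier results of these data known. Named were all variant genes with a count, the 12 clustered genes with the highest mean CPM, those called whose higher group averaged 1 CPM or more (up to 6 per direction by fold), every tested Hist2h, Hist3h or Hist4h gene, and up to 4 called genes per list with the smallest p. Other genes are named for the reason given beside them. Alternatives were RLE factors, library totals, no filter, a filter of 1 CPM, DESeq2 1.42.0, a replicate block, removal of trends with level or with GC content and length (mgcv 1.9.3), leaving out each library, and a crossed replicate block added later, 13 fits in all, and apart from these an adjusted p below 0.01.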

Additional observations from a re-analysis of the deposited data

How the results depend on the processing

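The 7 higher clustered genes numbered 4 with DESeq2 and 4 with the trend with level removed, and 4 to 9 when each library was left out in turn. The 0 lower clustered genes became 4 with that trend removed and 1 with GC content and length corrected, and 0 to 1 when each library was left out. Lower variants numbered 3 and not 5 with library totals and with the trend with level removed, and 7 with GC content and length corrected. Higher variants numbered 2 with library totals, 1 with the 1 CPM filter and 3 with the trend with level removed. Among the 4 lists the 10 higher genes numbered 16 with library totals, 6 with DESeq2 and 6 at an adjusted p below 0.01. The summed variant ratio was 0.919, and 0.959 with library totals, which moved the median of all genes from 0.0048 to 0.067. GC and length correction moved it to -0.091 and the clustered median from 0.24 to 0.017; leaving out each library gave 0.10 to 0.32.

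Log2 fold changes that turned sign were those of genes not called. H3f3b was at 0.034 with library totals, 0.11 with the level trend removed and 0.0028 with GC and length corrected, and ran from -0.068 to 0.0035 as each library was left out (highest without shMyb replicate 2). H2afy was at -0.046 and H2afx at -0.27 with GC and length corrected, and H2afx ran from -0.016 (without shMyb replicate 1) to 0.094. H1fx was at 0.0070 under scaling by totals and ran from -0.20 to 0.075 (highest without shMyb replicate 1). The cause of these changes was not tested.

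Samples with the same number did not deviate together (correlation -0.183). With the replicate number as a block, 6 clustered genes were higher and 0 lower, 5 variants lower and 0 higher, and 63 list genes lower and 11 higher, and among the histone genes called only Hist1h4d lost its call. With the numbers crossed, a pairing added after the data were seen, these were 8 and 0, 5 and 1, and 71 and 14. Of 46 tested clustered genes 30 had under 1 CPM, with standard errors of 0.31 to 0.71 on the log2 scale, and the smallest count of a tested one was 3.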
